A study of Mus musculus with 64 samples.

Results

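Mouse early distal convoluted tubules (DCT) were profiled by RNA sequencing, and the 49 protein-coding nuclear genes that specify subunits of respiratory complexes II, III, IV and V are described here, out of 54331 genes in the count table. They were picked by symbol: Sdha, Sdhb, Sdhc, Sdhd and Cyc1, and every symbol starting with Uqcr, Cox4 to Cox8 or Atp5 that is not a pseudogene. Complex II contributed 4 genes, complex III 9, complex IV 18 and complex V 18. The symbol rule also takes in Cox7a2l, a supercomplex assembly factor, and Atp5s, which is related to the synthase coupling factor, and it counts a second, almost silent gene model that carries the symbol Atp5o. Of the 49 genes, 48 passed the filter on low counts and were tested, and 43 averaged at least 3 on the scale of log2 counts per 1e+06 counts (CPM).

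All tubules came from transgenic mice, C57BL/6-Tg (Pvalb-tdTomato)15Gfng/J, and controls and treated mice share this background. In this line Pvalb, the parvalbumin gene that marks the early DCT, drives the red protein tdTomato. Mice of either sex received control diet alone or control diet containing furosemide, a loop diuretic that acts on the thick ascending limb, for 12, 24, 48 or 96 h, and tubules were microdissected between 9 and 11 am. This gives 16 groups of 4 libraries, and the controls were separate at each time. The labels give no ages and number the replicates without naming animals, so each p-value measures the spread between these libraries, which may be partly technical.

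Oxidative phosphorylation passes electrons from complexes I and II through ubiquinone, complex III and cytochrome c to complex IV, which reduces oxygen. Complexes III and IV pump protons out of the mitochondrial matrix, complex II does not, and complex V, the ATP synthase, uses the returning protons to make ATP. The DCT is packed with mitochondria, because its sodium pump consumes much ATP to keep salt reabsorption going, and complex II is the complex here with no subunit encoded in mitochondrial DNA.

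The 64 libraries held between 12.71 and 41.07 M counts each (M, 1e+06). The DCT marker Slc12a3, the thiazide-sensitive cotransporter, was present in all 64 libraries at 2789 to 16690 CPM, and Pvalb at 214.6 to 2537 CPM, while summed proximal tubule markers stayed between 15.66 and 403.2 CPM. Without the 3 libraries of low similarity named below, Slc12a3 reached 10620 CPM and Pvalb 983.5 CPM. Markers of the thick ascending limb summed to 2208 to 12740 CPM, and those of connecting tubule and principal cells to 253.8 to 10530 CPM. No marker list had a member at 0 throughout a group. In bulk samples fewer cells and less RNA per cell cannot be told apart. The median depth was 32.4 M in the 16 libraries of 96 h and 19.15 M in the 48 of earlier times. Lars2, the gene of the mitochondrial leucyl-tRNA synthetase, had a median of 10600 in the former and 36130 in the latter, in CPM of all counts. Time and this library difference cannot be told apart. Among the earlier libraries, female control 24 h replicate 3 (33.56 M, Lars2 10880) and male furosemide 12 h replicate 4 (35.73 M, 16750) were the deepest and the lowest in Lars2. Of the 64 libraries, 3 had a median Spearman correlation below 0.75 with the other 3 libraries of their group over 11131 genes: female control 24 h replicate 3 (0.448), female control 48 h replicate 4 (0.703) and male furosemide 12 h replicate 4 (0.722), and each result below is given with all libraries and, where it changes, without these 3.

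The promoters of 4 members are shown because the members stood higher together at 48 h: a subunit each of complexes II and III, and 2 of complex IV that contrast in motif content. Promoter windows of 300 bases (250 before and 50 after the start, RefSeq, GRCm38.p6, written 5′ to 3′ on the gene's strand) were matched for 36 of the 49 members. Capitals mark matches, on either strand, to GCGCNTGCG, the motif type of nuclear respiratory factor NRF1, or to CCGGAAG, the ETS type bound by GABPA. Both strands were searched, and matches may overlap each other. The windows are Sdha at chr13:74350191-74350490 (minus strand), Uqcrc1 at chr9:108936398-108936697 (plus strand), Cox6a1 at chr5:115348909-115349208 (minus strand) and Cox7a1 at chr7:30183921-30184220 (plus strand).
Sdha: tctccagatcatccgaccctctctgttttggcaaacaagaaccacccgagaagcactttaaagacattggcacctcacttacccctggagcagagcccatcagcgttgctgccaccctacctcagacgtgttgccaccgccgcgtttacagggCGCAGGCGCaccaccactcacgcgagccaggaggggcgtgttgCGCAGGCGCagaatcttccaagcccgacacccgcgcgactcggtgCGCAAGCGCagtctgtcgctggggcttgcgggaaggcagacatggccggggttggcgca
Uqcrc1: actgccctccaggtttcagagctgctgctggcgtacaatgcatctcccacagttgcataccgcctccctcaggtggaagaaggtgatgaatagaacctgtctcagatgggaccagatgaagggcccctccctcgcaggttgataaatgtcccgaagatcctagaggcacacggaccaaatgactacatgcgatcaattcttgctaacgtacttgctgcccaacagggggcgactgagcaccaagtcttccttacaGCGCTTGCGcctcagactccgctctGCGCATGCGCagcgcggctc
Cox6a1: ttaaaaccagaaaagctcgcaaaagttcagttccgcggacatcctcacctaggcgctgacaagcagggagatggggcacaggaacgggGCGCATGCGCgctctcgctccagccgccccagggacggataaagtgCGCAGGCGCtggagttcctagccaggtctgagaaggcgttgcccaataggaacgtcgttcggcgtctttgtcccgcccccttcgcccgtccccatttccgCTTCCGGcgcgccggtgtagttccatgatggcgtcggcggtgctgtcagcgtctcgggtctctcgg
Cox7a1: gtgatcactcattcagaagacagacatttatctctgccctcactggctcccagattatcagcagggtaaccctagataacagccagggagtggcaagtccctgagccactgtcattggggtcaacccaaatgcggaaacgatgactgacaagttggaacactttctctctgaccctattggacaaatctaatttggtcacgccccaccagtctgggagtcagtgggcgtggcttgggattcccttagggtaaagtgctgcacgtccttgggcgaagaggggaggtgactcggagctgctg
The Sdha and Uqcrc1 windows each held 3 matches to the NRF1 type and Cox6a1 held 3 of the NRF1 type and 1 of the ETS type. Cox7a1, a heart and muscle isoform, held none in this window. Across members, 14 of 36 (38.9%) held the NRF1 type, against 7.12% of 27025 genes, and 12 (33.3%) the ETS type, against 9.93%. AAGATGGCG, the YY1 type, was found in 2 (5.56%) against 1.64% of genes. At least 1 of the 3 motifs occurred in 21 (58.3%) against 16.6%. These are matches of letters, not sites.

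Together the members took 2.838 to 9.947% of all counts in a library. Complex V accounted for 1.304 to 3.742%, complex IV for 0.8445 to 4.067%, complex III for 0.438 to 1.722% and complex II for 0.111 to 0.4173%. On the scale of CPM per kilobase of exon, which allows genes to be compared, the highest median levels over 64 libraries were those of Cox8a (3895), Cox6a1 (3612) and Cox6b1 (2614), small complex IV subunits encoded by short transcripts. The quartiles of Cox8a and Cox6a1 overlapped, at 2912 to 4544 and 2885 to 4597, and their order was not tested. These quartiles pool all times. In controls the median of Cox6a1 was 2825 CPM at 12 h and 1462 CPM at 96 h, and that of Cox8a 2252 and 2318 CPM. Uqcr10 (2082) and Uqcr11 (1828), small subunits of complex III, and Atp5g3 (1560), a c subunit gene of the proton-conducting ring, came next. The catalytic β subunit Atp5b reached 1031 and its partner Atp5a1 716.4, whereas the flavoprotein Sdha stood at 145.8 and the core protein Uqcrc2 at 125.2. Of complex II, the iron-sulfur subunit Sdhb (363.9) and the anchor Sdhd (312.8) were above the anchor Sdhc (64.75). Exon length is that of the union of annotated exons, and with the longest annotated transcript Cox8a, Cox6a1 and Atp5g3 led the order.

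Where complex IV or V has paralogous subunits, one gene supplied nearly all transcripts in most families. Cox4i1 made up a median of 99.9% of the COX4 pair, Cox6b1 99.7% of the COX6B pair and Cox7b 99.9% of the COX7B pair, each per length. The tissue-specific isoforms were near 0. Cox4i2, known from lung, had a median of 0.4414 CPM, the testis isoforms Cox7b2 and Cox8c 0.5169 and 0.1504 CPM, and the heart and muscle isoform Cox8b 0.3318 CPM. Cox6a2, another heart and muscle isoform, was at 0 counts in 48 of 64 libraries and never above 0.4062 CPM. Cox6b2, a testis isoform, was measurable at a median of 8.744 CPM, or 0.286% of the pair per length. The exception among muscle isoforms was Cox7a1 with a median of 32.14 CPM and a range of 12.2 to 97.93 CPM, 4.53% of the COX7A family per length beside 90.4% for Cox7a2. Markers of skeletal and heart muscle summed to at most 26.86 CPM in any library.

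**Figure D1:**
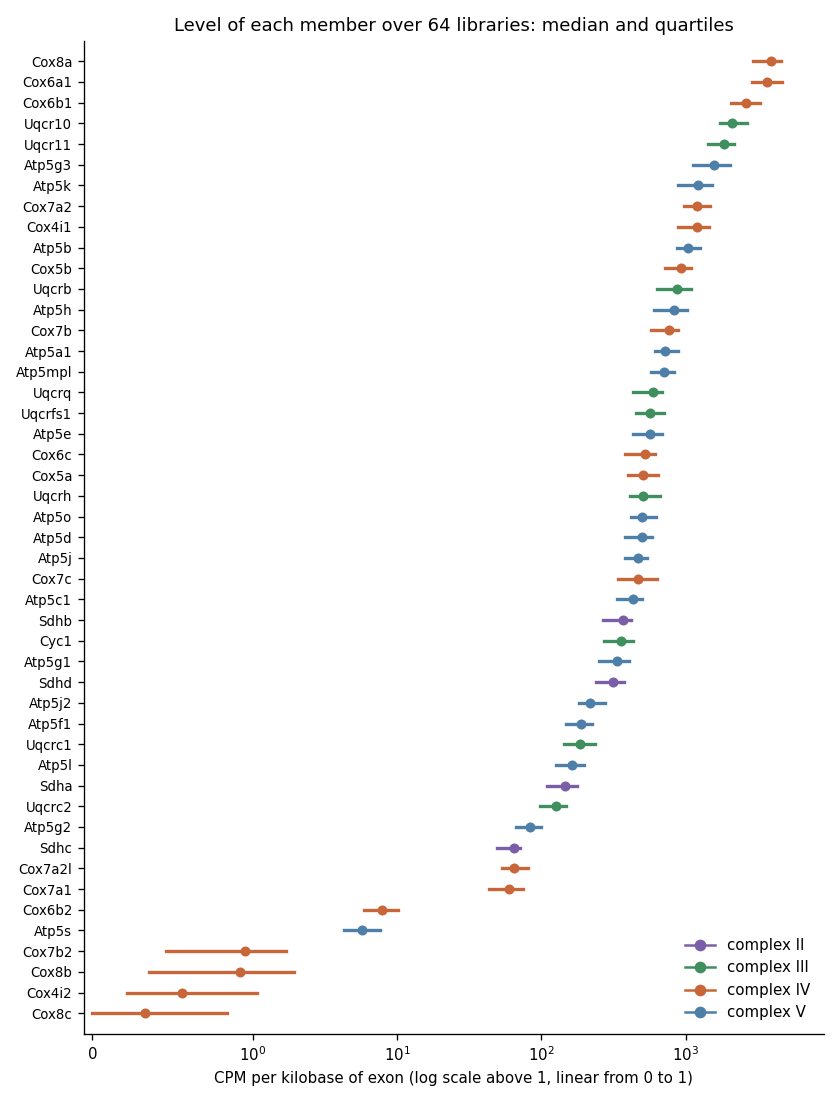
Level of each member in CPM per kilobase of exon (horizontal axis, log scale above 1 and linear from 0 to 1), with the median as a point and the quartiles over 64 libraries as a bar, coloured by complex. Cox6a2 and the second Atp5o model, both with a median of 0, are left out, and a gap separates Cox7a1 at 60.07 from Cox6b2 at 7.891.

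The study compared furosemide with control at each time. Values for both sexes are the mean of the male and the female difference and so rest on the same libraries. At 48 h the members stood higher in furosemide libraries across all 4 complexes, with a median log2 fold change of 0.62 in both sexes together (quartiles 0.55 and 0.70), beside -0.10 over all 41507 genes and 0.0953 over the 11131 genes averaging at least 3 log2 CPM. Of 48 members, 45 had a positive value, beside 42.9% of all genes and 59.9% of those averaging at least 3 log2 CPM. An unadjusted p under 0.05 was found for 36 members, all upward, beside 4.53% of all genes upward. No member passed an adjusted p of 0.05 in edgeR's quasi-likelihood test with all libraries, where 0.00241% of all genes did (1 gene). Without the 3 libraries of low similarity the median was 0.67 and 30 members rose with none falling, while 2.15% of all genes were called. Genes averaging at least 3 log2 CPM also stood higher in that fit, with a median of 0.274 and 72.4% positive. By complex, 2 of 4 members of complex II, 8 of 9 of complex III, 6 of 17 tested of complex IV and 14 of 18 of complex V rose in that fit. With all libraries kept but weighted by quality (voom of limma), 39 members rose, among them all 30, again beside 2.15% of all genes. The median of genes averaging at least 3 log2 CPM was 0.244 with these weights.

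The medians by complex lay close together at 0.60 for complex II, 0.66 for III, 0.55 for IV and 0.66 for V. Cox7a1 (chr7:30184144-30186078, plus strand, GRCm38) had the smallest p at 48 h. In males its 4 control libraries read 35.75, 53.4, 15.22 and 22.29 CPM and the 4 furosemide libraries 42.58, 45.91, 50.9 and 59.29 CPM. In females the controls read 15.04, 13.59, 22.71 and 12.2 CPM and the furosemide libraries 30.63, 31.03, 37.32 and 49.57 CPM. Groups did not overlap in females, and in males they overlapped only through control replicate 2. The log2 fold change of Cox7a1 in both sexes was 0.94 ± 0.246 (SE, n = 8 against 8), with an adjusted p of 0.287 by edgeR, and 0.90 ± 0.209 with an adjusted p of 0.0191 without the 3 libraries.

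Uqcrb, a complex III subunit near the ubiquinone site, exceeded its control median in all 8 furosemide libraries. Its male controls read 486.1, 985.1, 330.4 and 528.9 CPM against 967.9, 907.4, 995.4 and 856.4 CPM with furosemide. Its female controls read 426, 423.9, 574.7 and 457 CPM against 1054, 753.8, 954.9 and 778.9 CPM. Again male control replicate 2 alone lay inside the furosemide range. The log2 fold change was 0.79 ± 0.233 (edgeR adjusted p = 0.288), and 0.80 ± 0.178 without the 3 libraries (adjusted p = 0.0156).

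For Atp5o, the subunit that ties the F1 head to the peripheral stalk, controls of both sexes ranged from 421.4 to 1424 CPM with a median of 721.5, and furosemide libraries from 900.2 to 1596 CPM with a median of 1220 (log2 fold change 0.69 ± 0.208, edgeR adjusted p = 0.288, and 0.0295 without the 3 libraries). Sdha, the catalytic subunit of complex II, ranged from 181.3 to 669.2 CPM in controls (median 354.4) and from 519.4 to 740.4 CPM with furosemide (median 630.1). Its log2 fold change was 0.60 ± 0.235 with an edgeR adjusted p of 0.399, and 0.067 without the 3 libraries, so it did not pass in either fit. For both genes the ranges overlapped, yet all 8 furosemide libraries lay above the control median.

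Cox5a, which helps cap the matrix side of complex IV, had control values of 436 to 1468 CPM (median 750.5) against 1233 to 1611 CPM (median 1356), with a log2 fold change of 0.77 ± 0.256 (edgeR adjusted p = 0.325, and 0.0163 without the 3 libraries). Cox6b1, on the intermembrane face of the enzyme, had a log2 fold change of 0.75 ± 0.223, and Atp5k, the small subunit e of the membrane sector, 0.74 ± 0.24. Cyc1, cytochrome c1, was more dependent on the libraries used, at 0.48 ± 0.289 with all and 0.76 ± 0.187 without the 3. The F1 subunits Atp5a1 and Atp5b gave 0.70 and 0.58, the core subunit Uqcrc1 0.67, Uqcrc2 0.66, Sdhb 0.60, Sdhd 0.70 and Cox4i1 0.55 with all libraries. Atp5s was the one member above 3 log2 CPM with almost no difference (0.05 ± 0.274). Among the isoforms near 0, Cox8c was at -1.91 ± 1.07 and Cox8b at 1.12 ± 0.944, values that counting at this depth cannot resolve.

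The 43 better expressed members were high or low together within libraries. All 43 lay above the 48 h control median of their sex (for a control, that of the other 3 controls) in each of the 4 male furosemide libraries, and in the 4 female ones 43, 40, 43 and 42 did. Among controls, male replicate 2 and female replicate 3 also had all 43 above it, male replicate 3 and female replicate 2 had 0, and female replicate 4, of low similarity, had 40 with the lowest share of counts in its group. As a share of all counts, a measure without TMM scaling, the members held 4.247, 5.148, 2.838 and 3.914% in male controls against 5.434, 5.173, 5.136 and 4.736% with furosemide. Female controls held 3.757, 3.864, 4.353 and 2.88% against 5.707, 4.401, 5.542 and 5.225%. The female groups did not overlap and the male groups did, through replicate 2 of the controls. In females 32 of 48 members had every furosemide library above every control, beside 2.28% of all genes, and in males 0 did, beside 1.22%. Members are measured in the same libraries and are not independent of each other.

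No difference between the sexes was called at 48 h. The median fold was 0.56 in males and 0.70 in females on the log2 scale, the tested difference between the sexes had a median of 0.16 over members (-0.19 without male control replicate 2 and 0.38 without male control replicate 3), and 0 members were called for it (0% of all genes). The male median was 0.35 without control replicate 3 and 0.91 without control replicate 2. With library totals in place of TMM factors the median for both sexes was 0.39, when that of all genes shifted to -0.397 from -0.103.

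**Figure D2:**
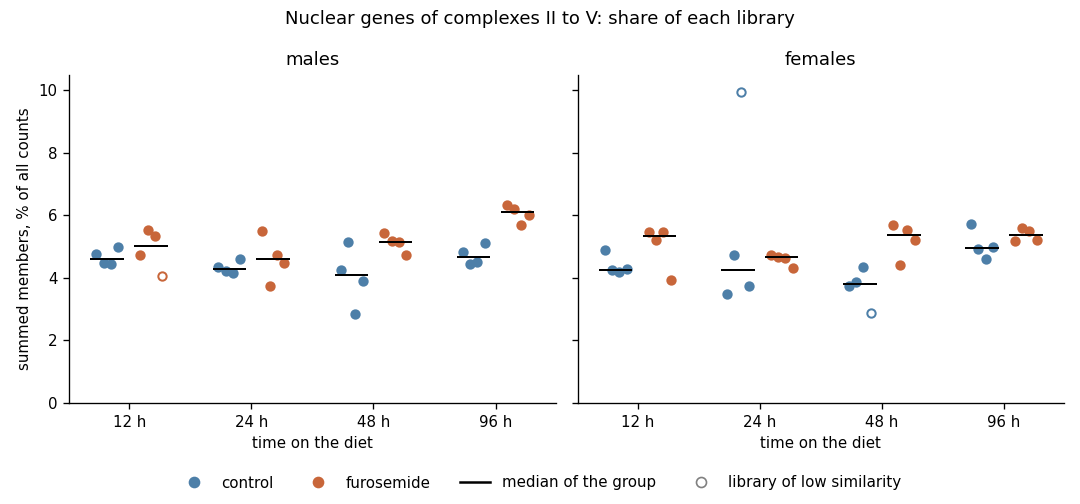
Summed counts of the members as a percentage of all counts (vertical axis) in each library by time on the diet, in males (left) and females (right), with points for libraries, a line at each group's median and open points for the 3 libraries of low similarity. At 48 h all female furosemide libraries (4.401 to 5.707%) lay above the female controls, at 96 h all male furosemide libraries (5.703 to 6.342%) lay above the male controls, and the open point at 9.947% is female control 24 h replicate 3.

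At 96 h the members were again above control on balance, with a median log2 fold change of 0.38 (quartiles 0.18 and 0.46), beside 0.01 over all genes and 0.051 over those averaging at least 3 log2 CPM. Of 48 members, 42 were positive, beside 50.6% of all genes and 59.5% of those averaging at least 3 log2 CPM. An unadjusted p under 0.05 was found for 10 members, all upward, beside 2.24% of all genes upward. None passed the adjusted threshold in edgeR, where 0.0819% of all genes did (34 genes), none did without the 3 libraries (0.309% of all genes), 1 did in DESeq2 (0.419%), and 25 did with quality weights, beside 3.65% of all genes. The complexes differed in their medians at this time, from 0.12 for complex II and 0.30 for complex III to 0.39 for V and 0.45 for IV. This order turned without the 96 h furosemide libraries high in Lars2, described below. The medians were then 0.51 for complex II, 0.41 for III, 0.39 for IV and 0.38 for V.

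Cox5a (chr9:57521274-57532426, plus strand) was the one member whose 96 h groups did not overlap in both sexes together, beside 0.161% of all genes with every furosemide library higher. Male controls read 941.8, 816.4, 824.9 and 1013 CPM against 1535, 1661, 1273 and 1673 CPM with furosemide. Female controls read 1089, 983.4, 737.1 and 833.6 CPM against 1315, 1148, 1137 and 1209 CPM. Its log2 fold change was 0.59 ± 0.255 (edgeR adjusted p = 1).

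Atp5k (chr5:108433244-108434448, minus strand) had the smallest p, at 0.77 ± 0.24 (edgeR adjusted p = 0.433, and 0.0546 without the 3 libraries). Its male controls read 618.8, 553.2, 295.9 and 632.5 CPM against 951.7, 934.2, 1043 and 1330 CPM, and its female controls 878.5, 524.5, 545.1 and 401.4 CPM against 484.3, 972.3, 893.7 and 997.4 CPM. Only female furosemide replicate 1 lay within the control range. Atp5g3 ranged from 1006 to 1972 CPM in controls (median 1328) and from 1456 to 2980 CPM with furosemide (median 2100), a log2 fold change of 0.64 ± 0.224 (edgeR adjusted p = 0.652). All 8 furosemide libraries exceeded the control median and the ranges overlapped in females. Cox6a1, a regulatory complex IV subunit, gave 0.61 ± 0.259, Cox7a1 0.57 ± 0.244, Uqcr10 0.53 ± 0.247, Atp5o 0.44 ± 0.207 and Cox4i1 0.40 ± 0.286.

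Sdha, by contrast, had nearly the same level on both diets when all libraries were used. It ranged from 696.5 to 1381 CPM in controls (median 947.9) and from 644.3 to 1634 CPM with furosemide (median 863.2), with a log2 fold change of 0.07 ± 0.234. Its furosemide libraries split widely, with 1400, 1551, 644.3 and 942.5 CPM in males and 1634, 679.7, 784 and 727.5 CPM in females. The values of 1400, 1551 and 1634 CPM came from male replicates 1 and 2 and female replicate 1. Lars2 in these was 10260, 10430 and 3920 CPM of all counts, against 18340 to 29630 in the other furosemide libraries. Without those others the complex II members were at 0.41 to 0.63. The part of Lars2 in this was not tested further. With all libraries Uqcrc1 was at 0.10 ± 0.293, Sdhb at 0.18 ± 0.265, Sdhc at 0.22 ± 0.25, Atp5a1 at 0.18 ± 0.232, Atp5b at 0.28 ± 0.235 and Cyc1 at 0.29 ± 0.288. The sign for Sdha and Uqcrc1 was negative with quality weights and with library totals, at -0.06 and -0.11 for Sdha and -0.03 and -0.08 for Uqcrc1. Split at the median longest transcript of 1129 bases, the 21 shorter members had a median of 0.44 and the 22 longer ones 0.22. At 48 h the same 2 sets had 0.61 and 0.65. At 96 h without the furosemide libraries high in Lars2 they had 0.37 and 0.48.

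Males and females differed in size at 96 h without passing a test. The median over members was 0.64 in males and 0.14 in females. The difference between the sexes had a median of -0.47, negative for 45 of 48 members, where 55.6% of all genes were positive. For this difference 0 members were called (0% of all genes). In males 26 of 48 members had every furosemide library above every control, beside 2.68% of all genes. In females 2 did, beside 1.19%. The member share of all counts was 4.843, 4.457, 4.526 and 5.115% in male controls and 6.342, 6.21, 5.703 and 6.007% with furosemide. It was 5.739, 4.939, 4.619 and 4.998% in female controls and 5.174, 5.591, 5.511 and 5.215% with furosemide, so the groups were apart in males and overlapped in females.

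Lars2 moved with diet at this time. It lay above every 96 h control (highest 16360 CPM of all counts) in 5 of 8 furosemide libraries, which were male replicates 3 and 4 and female replicates 2, 3 and 4. Of the 3 others, male furosemide replicates 1 and 2 had the highest member shares of all counts in their group and female replicate 1 the lowest of its group. On the TMM-scaled CPM of the summed members the order was another. Female replicate 1 was then the highest of its group (59070 against 48790 to 53290 CPM). In males replicate 4 was the highest (73410 CPM, against 63720 and 69780 in replicates 1 and 2). With Lars2 as a covariate the median over members was 0.19 in both sexes, 0.42 in males and -0.03 in females. Without the 5 libraries it was 0.40, 0.58 and 0.19, with male replicates 1 and 2 and female replicate 1 left as furosemide libraries. Over genes averaging at least 3 log2 CPM the median in both sexes was 0.0536 with the covariate and 0.208 without the 5 libraries. It was 0.051 in the main fit. In edgeR 0 members were called in either fit, and the part of Lars2 in the result was not tested beyond these fits.

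**Figure D3:**
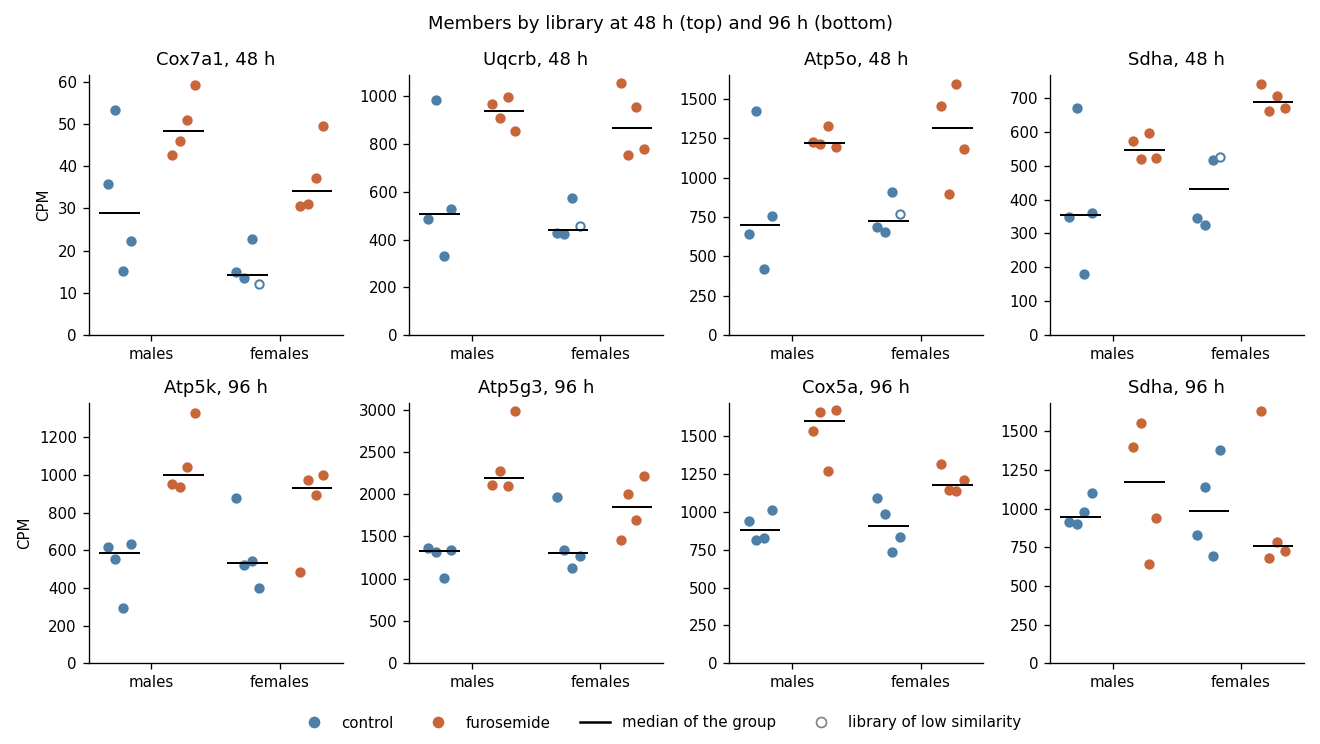
CPM (vertical axis, from 0) of 4 members in each library at 48 h (top row) and 4 at 96 h (bottom row), males left and females right within each panel, with a line at each group's median. At 48 h male control replicate 2 is the single male control in the furosemide range of Uqcrb, and at 96 h Cox5a has no overlap while Sdha spreads from 644.3 to 1634 CPM with furosemide.

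At 12 h the median over members was 0.29 with 44 of 48 positive, where 50% of all genes were, beside a median of 0 over all genes and 0.15 over those averaging at least 3 log2 CPM. Of the latter genes 66.7% were positive. At an unadjusted p under 0.05 3 members were upward, beside 5.11% of all genes, and 1 downward, beside 3.72%. No member was called (0% of all genes). Uqcrc1 led, at 512 to 873.6 CPM in controls (median 708.1) and 487.3 to 3216 CPM with furosemide (median 893), followed by Cyc1 at 419.9 to 910.3 CPM against 510 to 2669 CPM. Both maxima came from male furosemide replicate 4, a library of low similarity. Without the 3 libraries Uqcrc1 went from 0.70 ± 0.294 to 0.31 ± 0.198 and Cyc1 from 0.69 ± 0.289 to 0.38 ± 0.184, while the median over members was 0.32. Sdha was at 0.48, Atp5b at 0.43, Atp5a1 at 0.41, Sdhd at 0.39, Cox5a at 0.38 and Cox6b1 at 0.25 with all libraries, each with overlapping groups. The male and female medians were 0.08 and 0.45, and the difference between them, with a median of 0.37, gave 0 calls (0% of all genes). Without the 3 libraries these values were 0.18, 0.45 and 0.27.

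At 24 h the direction rested on 1 library. The median over members was -0.26, beside -0.04 over all genes, and 10 of 48 members were positive. Of all genes 46% were positive, and of those averaging at least 3 log2 CPM 43.7%. No member was called (0.00964% of all genes), and 4 had an unadjusted p under 0.05, all downward, beside 4.45% of all genes. Female control replicate 3 held 9.947% of its counts in members, against 3.494 to 4.732% in the other 3 of its group, and mitochondrial transcripts made up only 2.399% of it. Cox8a read 22100 CPM in it and 1111 to 1937 CPM in those 3, and Uqcrq, a complex III subunit, read up to 8163 CPM. Without the 3 libraries the median was 0.40 with 44 of 48 members positive and 27 at an unadjusted p under 0.05, all upward, beside 6.39% of all genes, and again 0 members were called (0.00692% of all genes). Of genes averaging at least 3 log2 CPM 66.6% were positive in that fit, with a median of 0.145. Cox8a was at -0.75 ± 0.305 with all libraries and 0.36 without the 3, Uqcrq at -0.68 ± 0.297 and 0.37, Atp5d, the F1 δ subunit, at -0.46 and 0.45, and Sdhb at -0.48 and 0.33. In males, whose 24 h groups hold none of the 3, the median was 0.29. In females it was -0.81 with all libraries and 0.46 without the 3. The difference between the sexes had a median of -1.07 and 0.14, with 0 members called in either fit (0% of all genes in both), and with all libraries 26 were lower at an unadjusted p under 0.05, beside 7.48% of all genes.

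**Figure D4:**
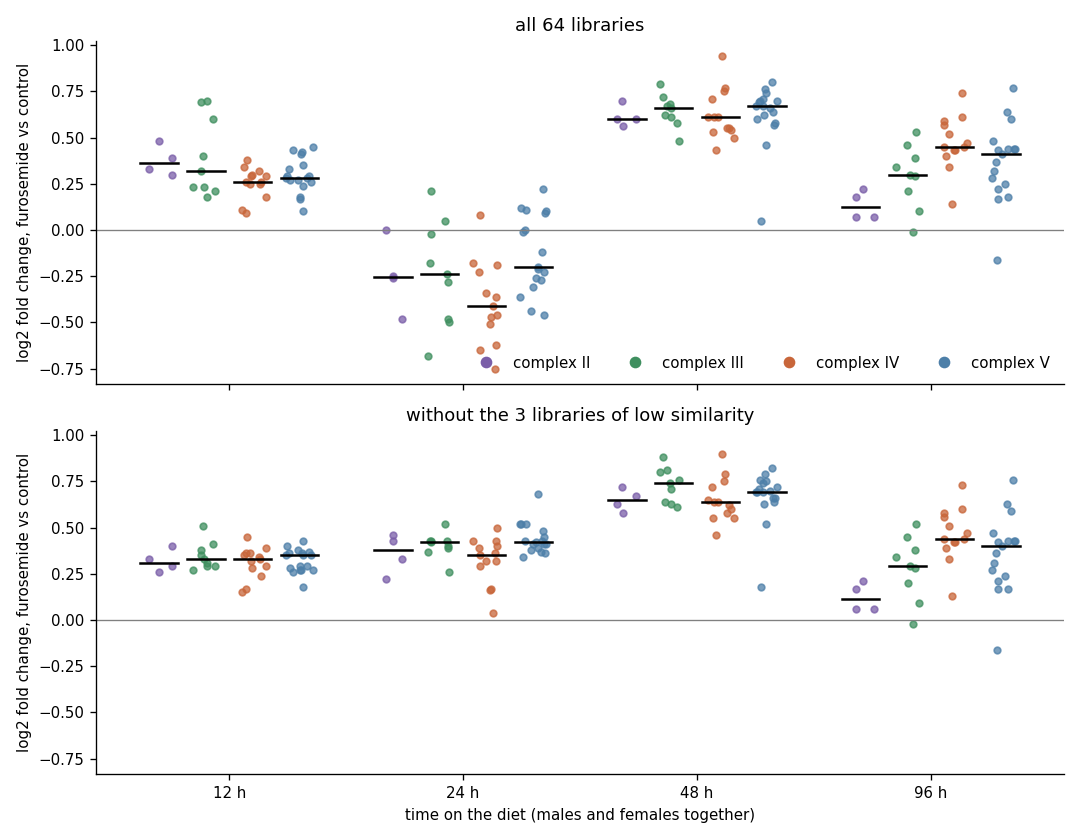
Log2 fold change of furosemide against control for each member above 8 CPM (points, coloured by complex, with a line at each complex's median) at 12, 24, 48 and 96 h in males and females together, with all 64 libraries (top) and without the 3 of low similarity (bottom). The 24 h values are mostly below 0 in the top panel and all above 0 in the bottom one, the 48 h values change little, and complex II is lowest at 96 h. Both panels keep the 96 h furosemide libraries high in Lars2, without which complex II had the highest median (0.51).

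Differences between neighbouring times did not pass either. The change in the furosemide effect had a median over members of -0.54 from 12 to 24 h, 0.84 from 24 to 48 h and -0.23 from 48 to 96 h, with 0 members called for each (0.00482, 0 and 0% of all genes). At an unadjusted p under 0.05 the first had 10 members lower, beside 5.31% of all genes, the second 32 higher, beside 5.05%, and the last 1 lower, beside 2.16%. Without the 3 libraries the medians of the first pair were 0.08 and 0.29. The last, from 48 to 96 h, had 40 of 48 members negative. Of all genes 56.4% were positive for it with all libraries and 52.4% without the 3.

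Other genes of the pathway were read beside the members, each list described by count and median. At 48 h 42.9% of all genes and 59.9% of those averaging at least 3 log2 CPM were positive with all libraries. Without the 3, 2.15% of all genes were called. Of 38 nuclear subunits of complex I, the entry point for NADH, 38 were positive at 48 h with a median of 0.64 and 0 called, and 29 rose without the 3 libraries. All 13 enzymes of the citric acid cycle outside complex II were positive, with a median of 0.65, and 9 rose without the 3, among them Idh3a (0.87 ± 0.198), a subunit of isocitrate dehydrogenase, and Dlst (0.80 ± 0.191), of the oxoglutarate dehydrogenase complex. Of 16 genes of electron carriers and ATP export, 16 were positive (median 0.58) and 8 rose without the 3. Cycs, cytochrome c, gave 0.89 ± 0.174 and Pdss1, which builds the ubiquinone side chain, 1.34 ± 0.331. Of 33 assembly factors 7 rose without the 3 libraries, including Cox20 (0.78 ± 0.16) and Bcs1l (0.73 ± 0.204), the chaperones of cytochrome oxidase and complex III.

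The transcription factors that act on such genes had smaller values. Of 13 regulators of mitochondrial gene expression 10 were positive at 48 h with a median of 0.22, 0 called with all libraries, and 1 without the 3, Esrra, an orphan nuclear receptor (0.85 ± 0.201). The size of its value depended on the libraries used, from 0.22 to 0.84 when 1 library was left out at a time. The coactivator Ppargc1a was at 0.38 ± 0.235 and Tfam, which packages mitochondrial DNA, at 0.35 ± 0.227, neither past the threshold in either fit. The 6 subunits of complexes III to V encoded in mitochondrial DNA had a median of 0.26 and 0 calls in either fit, with mt-Co1 at 0.29 ± 0.268, mt-Co3 at 0.28 ± 0.276 and mt-Atp6 at 0.27 ± 0.295. Of the sodium pump, the β subunit Atp1b1 rose without the 3 libraries (0.75 ± 0.184), and its regulator Fxyd2 was at 0.66 ± 0.272 with all libraries and did not pass in either fit.

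At 96 h complex I had a median of 0.32 with 36 of 38 positive, near that of the members, while the citric acid cycle list was at 0.08, the carriers at 0.13, the assembly factors at 0.14 and the regulators at 0.02, with 0 called in any of these. This contrast was not seen without the 96 h furosemide libraries high in Lars2. The last 4 lists were then at 0.51, 0.44, 0.35 and 0.34, beside 0.39 for complex I and 0.40 for the members. Ppargc1b was at 0.96 ± 0.269 and Ppargc1a at -0.57 ± 0.236, neither past the adjusted threshold with all libraries (edgeR adjusted p = 0.218 and 1), and Ppargc1b rose without the 3 (adjusted p = 0.0278). Values at 96 h of mt-Atp6 (0.57 ± 0.296) and mt-Co1 (0.35 ± 0.269) turned to -0.15 and -0.03 with Lars2 as a covariate. Marker lists of other cells were read beside these results. No marker in the lists that follow was called in edgeR with all libraries, and the summed ranges of each list overlapped between the diets. At 96 h the 6 intercalated cell markers were all negative (median -1.28, summed level 3.41 to 90.78 CPM in controls and 4.155 to 24.71 with furosemide), and so were the 6 of connecting tubule and principal cells (median -0.98, 1655 to 4347 and 1243 to 7201 CPM). Thick ascending limb markers were positive in 6 of 7 (median 0.80, 2305 to 7565 and 2208 to 9646 CPM). At 48 h the 5 erythroid markers were all negative (median -5.24, 0.4719 to 312.7 and 0.264 to 34.65 CPM), as were the 3 podocyte markers (median -0.95, 11.19 to 545.9 and 26 to 51.54 CPM), and early DCT markers were positive in 3 of 6 (median -0.03, 4335 to 27330 and 9653 to 13450 CPM). The medians of the summed levels differed less than these fold changes: 2591 and 2279 CPM for connecting tubule and principal cells at 96 h, 1.641 and 1.163 for erythroid and 24.3 and 28.65 for podocyte markers at 48 h, in controls and with furosemide. None of these lists had a marker at 0 throughout a group, and their part in the results was not tested.

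Within controls, the 96 h libraries were set against those of 12, 24 and 48 h. The median over members was 0.11 and 5 were called, 3 higher and 2 lower, beside 12.3% of all genes. Atp5g3 (chr2:73908447-73911326, minus strand) fell by 1.43 ± 0.199 on the log2 scale (edgeR adjusted p = 3.34e-07) and Cox6a1 fell by 0.92 ± 0.223, while Sdha rose by 1.08 ± 0.181, Cox7c, a small complex IV subunit, by 0.90 ± 0.209 and Atp5s by 0.75 ± 0.214. Atp5g3 read 3520 to 5694 CPM in the 8 controls of 12 h, 2523 to 7310 at 24 h, 1372 to 5414 at 48 h and 1006 to 1972 at 96 h. Sdha read 401.3 to 653, 322.9 to 1052, 181.3 to 669.2 and 696.5 to 1381 CPM at those times. Without the 3 libraries 24 members were called, 21 of them higher, beside 22.3% of all genes, and Atp5g3, Cox6a1 and Uqcrh, the acidic hinge protein of complex III, were the 3 lower ones. Leaving out female control 24 h replicate 3 alone gave 27 calls. With Lars2 as a covariate Atp5g3 was at -0.69 with an edgeR adjusted p of 0.448.

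The 3 genes of the c subunit encode the same mature ring protein with different import sequences, and their proportions, which do not depend on library scaling, set the 96 h libraries apart on both diets. Atp5g3 supplied 78.44 to 86.79% of c subunit transcripts per length in the 22 controls of 12 to 48 h left after the 3 libraries were removed, and 57.19 to 66.14% in the 8 of 96 h. In furosemide libraries it supplied 78.91 to 84.82% (n = 23) and 56.51 to 68.06% (n = 8). Atp5g1 went the other way, at 9.861 to 17.42% and 26.46 to 33.62% in controls, and 12.42 to 16.85% and 25.74 to 34.17% with furosemide. Atp5g2 had medians of 3.34 and 8.309% in controls. The percentages depend on the lengths used, which were union exons of 4912 bases for Atp5g1, 1675 for Atp5g2 and 2181 for Atp5g3. Without a correction for length, the median levels over 64 libraries were 1625, 140.5 and 3401 CPM. The ranges of the early and late libraries did not overlap for any of the 3 genes, while the ranges of the 2 diets overlapped at 96 h. Female control 24 h replicate 3 was the single early library with shares of Atp5g3 (56.55%) and Atp5g1 (34.92%) like the late ones. For Atp5g2, male furosemide 12 h replicate 4, also one of the 3, lay within the late range as well, at 5.856%. Both libraries were also the deepest of the early ones and the lowest in Lars2. The labels name no batch, and time on the diet, depth and library properties at 96 h cannot be told apart here.

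**Figure D5:**
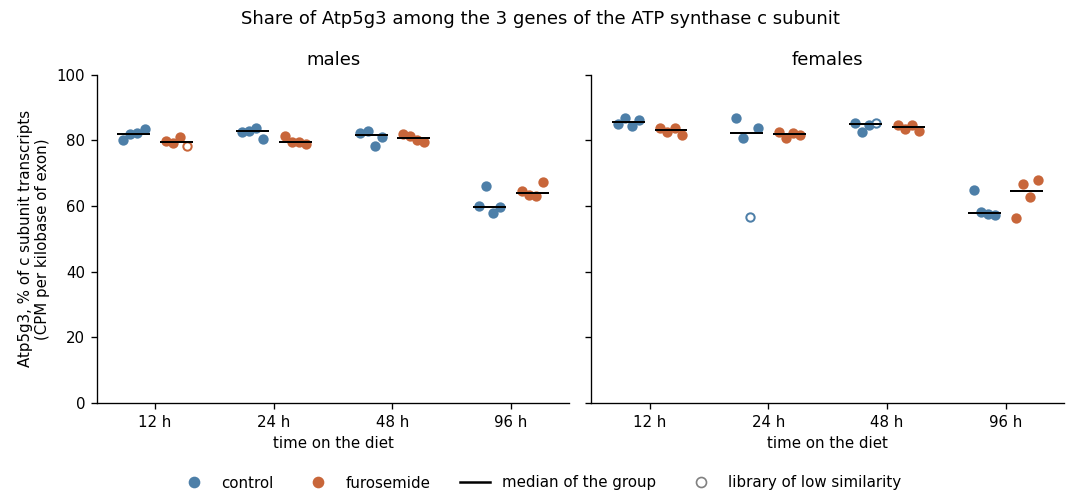
Share of Atp5g3 among transcripts of the 3 c subunit genes, per kilobase of exon (vertical axis, 0 to 100%), in each library by time on the diet, males left and females right, with a line at each group's median and open points for libraries of low similarity. All 96 h libraries of both diets lie between 56.51 and 68.06%, below the filled points of 12 to 48 h at 78.44% or more.

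Between the sexes in controls, 0 members were called, beside 1.24% of all genes. The median of female against male was 0.16 with all libraries and -0.15 without the 3, so its direction turned with the libraries used. With all libraries 2 members were higher in females at an unadjusted p under 0.05, beside 7.48% of all genes.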

How the data were processed

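RNA of 64 microdissected tubule samples was amplified with SMART-Seq HT and made into Nextera XT libraries, per the labels' protocols. These kits mark no strand. The deposited values are expected counts per gene, which the authors made with Salmon 0.14.10 on GRCm38.p6, per the submitters' processing notes. The annotation release is not given in the sources used here. Of the values 55% were whole, and all were rounded. Symbols, positions and lengths came from GENCODE M21 (54097 of 54331 identifiers matched). Salmon divides reads among similar sequences by a model, so members with processed pseudogenes or near-identical copies are uncertain.

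Genes were tested with edgeR 4.0.16 in R 4.3.3 (quasi-likelihood test, TMM scaling, filterByExpr with a minimum count of 10, 41507 genes, 1 mean per group in a single fit of 64 libraries), with Benjamini-Hochberg adjustment over all genes and a call at an adjusted p under 0.05. SEs are the fold change over the root of F. Alternatives were DESeq2 1.42.0, its size factors, voom with quality weights (limma 3.58.1), other scalings, no filter, time-wise fits, Lars2 as a covariate, a replicate block and leaving out libraries. Libraries of low similarity were those with a median Spearman correlation under 0.75. Tested on simulated 48 h data (39471 genes), the method found 28 of 100 genes at a log2 fold of 1, 84 of 100 at a log2 fold of 2, and 7 unchanged genes. A simulated 24 h comparison with no change gave 0 calls. No pair of libraries in a group agreed within counting noise (smallest chi-square per degree of freedom 14.64).

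The members, gene lists and tests were chosen with earlier results of these data known. Named are the anchor members, the tissue isoforms and every member called in edgeR with all libraries. In each comparison of diets the 2 members of each complex with the smallest p, among those averaging at least 3 log2 CPM, were to be named. Uqcrh at 96 h was left out. At 48 and 96 h the plan also held the 2 genes of each list with the smallest p plus Ppargc1a, Tfam, Cycs, mt-Co1 and mt-Atp6. This was kept in part. Left out were Ndufb3 and Ndufs1 at 48 h. At 96 h Tfam, Cycs, mt-Co3 and the genes of the complex I, citric acid cycle, carrier and assembly lists were left out. Others were chosen after their values were seen. The sodium pump list is not reported here in full.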

Additional observations from a re-analysis of the deposited data

Results flagged for a closer look

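Over 7 measures (the summed members and 6 genes) in 16 groups of 4 libraries, 112 sets of values were screened, and 13 values lay so far from the other 3 that the gap, as a part of the group's range, exceeded Dixon's critical value, and chance alone flags about 1 group in 20. The summed members stood at 4.888% of counts in female control 12 h replicate 1, against 4.206 to 4.284% in the others. Female control 24 h replicate 3, the library of lowest similarity, was high for Cox5a (5002 CPM against 541.8 to 867.8), Atp5g3 (7310 against 2523 to 3131) and Cyc1 (3312 against 349.6 to 633.4).

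Male furosemide 12 h replicate 4, also of low similarity, was high for Cyc1 at 2669 CPM against 640.9 to 940. Female furosemide 96 h replicate 1 was high for Sdha (1634 CPM against 679.7 to 784) and Cyc1 (1536 against 823.6 to 856.2). Female furosemide 24 h replicate 3 was high for Atp5o (1188 CPM against 947.4 to 973) and Cyc1 (719.5 against 579.5 to 594.5). Cox7a1 was high in male control 96 h replicate 1, at 40.09 CPM against 21.55 to 23.88. On the low side were Cox5a in male furosemide 24 h replicate 2 (811.5 CPM against 1308 to 1408), Atp5g3 in male control 96 h replicate 3 (1006 against 1318 to 1369) and Cyc1 in female control 96 h replicate 3 (718.2 against 929.8 to 938.2).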

How the results depend on the processing

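For both sexes together, the median log2 fold change over members was positive at 12, 48 and 96 h under every alternative run, and changed sign at 24 h. That median was 0.40 both with quality weights (voom) and without the 3 libraries of low similarity. In females at 24 h it was 0.47 and 0.46 under these 2 settings and -0.28 with library totals, and 4 members were called with DESeq2's size factors (350 of all 41507 genes), 11 in DESeq2 (1122) and 1 with Lars2 as a covariate (92). The difference between the sexes at 24 h was 0.16, 0.14 and -0.36 with voom, without the 3 and with library totals. The change from 12 to 24 h was 0.11 and 0.08, and that from 24 to 48 h 0.33 and 0.29, with voom and without the 3. Calls with voom, with those over all genes in parentheses, numbered 39 (891) at 48 h, 25 (1515) at 96 h, 26 (715) in males and 1 (460) in females at 96 h, 4 (421) for 96 against 48 h, 1 (667) between the sexes in controls and 34 (15707) for the 96 h controls. Without the 3 they were 30 (930) at 48 h and 24 (9678) for the 96 h controls, which gave 1 (388) with Lars2 and 20 (6543) with library totals. DESeq2 made 1 call (174) at 96 h. The cause was not tested.

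Single genes turned at 24 h with voom and without the 3 libraries: Sdhb (0.38 and 0.33), Sdhc (0.46 and 0.46), Uqcrq (0.39 and 0.37), Uqcr11 (0.28 and 0.26), Cox8a (0.34 and 0.36), Cox7a2l (0.26 and 0.29), Atp5e (0.38 and 0.38) and Atp5d (0.44 and 0.45). At 96 h Sdha was at -0.06 with voom and -0.11 with library totals, and Uqcrc1 at -0.03 and -0.08. With Lars2 as a covariate and without the 96 h furosemide libraries high in Lars2, mt-Atp6 was at -0.15 and -0.37 and mt-Co1 at -0.03 and -0.04. The last setting and library totals were chosen after seeing the data.

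Leaving out 1 library at a time gave medians of 0.19 to 0.38 at 12 h, -0.39 to 0.44 at 24 h, 0.52 to 0.80 at 48 h and 0.34 to 0.43 at 96 h. In males they were -0.03 to 0.19, 0.22 to 0.44, 0.35 to 0.91 and 0.56 to 0.72 at these times, and in females 0.28 to 0.63, -1.11 to 0.49, 0.63 to 0.80 and 0.06 to 0.18. Calls in females at 24 h ran from 0 to 19 (19 without control replicate 1, 15 without replicate 4, 9 without replicate 2), and the median was 0.49 without replicate 3. The difference between the sexes ran from 0.22 to 0.54 at 12 h, from -1.43 to 0.12 at 24 h, with 0 to 11 calls, and from -0.19 to 0.38 at 48 h. The changes between neighbouring times ran from -0.67 to 0.11, 0.27 to 1.02 and -0.41 to -0.12. The sex difference in controls ran from -0.14 to 0.25, and the 96 h controls from 0.07 to 0.42 with 5 to 27 calls. At 24 h Sdhb ran from -0.62 to 0.37, Sdhc from -0.39 to 0.50, Uqcrq from -0.84 to 0.41, Uqcr11 from -0.64 to 0.30, Cox8a from -0.91 to 0.40, Cox7a2l from -0.81 to 0.33, Atp5e from -0.58 to 0.42 and Atp5d from -0.61 to 0.50. At 96 h Sdha ran from -0.13 (without female furosemide replicate 1) to 0.17 and Uqcrc1 from -0.08 to 0.17.

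Replicate numbers did not pair the libraries: of 32 pairs, 10 correlated above 0.1 (range -0.74 to 0.58). With the replicate block the medians were 0.26, -0.23, 0.60 and 0.38 with 0 calls, and 5 calls for the 96 h controls. Depth limits the isoforms near 0, whose folds cannot be resolved.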
